A study of Homo sapiens with 4 samples.

Results

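The genes described here are 10 members of the Toll-like receptor system, followed through the transcriptomes of U937 cells, an established human cell line of monocytic character that was derived from a histiocytic lymphoma. They are a list of named genes, set by their role in the pathway and drawn up with earlier results of these data known: the surface receptors TLR1, TLR2, TLR4, TLR5 and TLR6, the endosomal receptor TLR8, the co-receptors CD14 and LY96, the adaptor MYD88 and the inhibitory kinase IRAK3. These are 10 of the 17656 genes in the deposited table, and all 10 were found in it. The table held 4 libraries of total RNA. For 2 libraries, named NC, the labels state U937 cells without treatment, and for the other 2, named sh-ZNF217, U937 cells in which ZNF217 was knocked down. ZNF217 is a zinc finger protein that works with corepressors at promoters. The label sh-ZNF217 names a short hairpin RNA, which the study delivered to its lines with a lentiviral vector. The study's text describes its U937 RNA-seq both as a knockdown and as a comparison after CRISPR/Cas9 knockout, so how ZNF217 was perturbed in these libraries remained unclear. The comparison asked how the transcriptome of these cells differs when ZNF217 is perturbed. Whether the NC cells carried a control vector was not stated. An effect of vector delivery therefore cannot be told apart from one of ZNF217. Neither a time point nor a clone was given in the labels, nor did the labels state whether the replicates were grown as separate cultures. The p-values therefore measure the spread between these libraries, which may be technical.

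Toll-like receptors are germline-encoded sensors whose leucine-rich ectodomains bind microbial products and whose cytoplasmic TIR domains recruit adaptors. TLR2 forms heterodimers with TLR1, for triacylated lipopeptides, or with TLR6, for diacylated lipopeptides. TLR4 senses lipopolysaccharide through its partner LY96, also called MD-2, after CD14 has handed the ligand over, while TLR5 senses flagellin and TLR8 senses single-stranded RNA in endosomes. MYD88 joins most of these receptors to the IRAK kinases, and IRAK3, also called IRAK-M, is a member of that family that restrains the signal and is best known from monocytes and macrophages.

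Levels are given in TPM, a unit that divides reads by transcript length and scales every library to the same total. TPM keeps no record of read number, so the depth of the libraries was unknown and no counting error could be attached. The libraries listed 14080 to 14101 genes at 1 TPM or more in NC and 14402 to 14421 in the group labelled sh-ZNF217, and mitochondrially encoded genes took 9.98% to 10.8% of TPM in NC against 12.5% to 12.7%. ZNF217 itself stood at 36.1 and 36.7 TPM in NC and at 35.8 and 35.0 TPM under the sh-ZNF217 label. Its log2 fold change in limma came to -0.04 (SE 0.07, 95% interval -0.21 to 0.14, adjusted p 0.74), so the mRNA of the targeted gene was not measurably lower and the group is called by its label throughout. Of 11 marker genes of the monocytic line, 10 reached 1 TPM in at least 1 library, and MPO, a primary granule enzyme, did not. The 11 markers summed to 4341 and 4367 TPM in NC and to 6981 and 6876 TPM under the sh-ZNF217 label. Most of that was LYZ, lysozyme, with a mean of 3263 TPM in NC and 5419 TPM in the other group. By the rule given below, 6 of 10 tested were called higher, 0 lower and 4 neither. Across all tested genes 6.26% were called higher and 2.46% lower. The called markers thus moved with the receptor genes described below, and their part in those differences was not tested. Markers of other lineages were low apart from NKG7, a granule gene of cytotoxic cells at a mean of 88.6 TPM over the 4 libraries. Of 9 T and NK cell markers 3 were in the table, summing to 70.1 to 87.1 TPM in NC and to 102 to 113 TPM in the other group, with CD2 called higher. Of 6 B cell markers 4 were in the table at 6.96 to 12.5 TPM and 9.59 to 11.2 TPM, with CD22 called higher and PAX5 lower. Of 7 dendritic cell markers 4 summed to 1.89 to 3.63 TPM and 2.35 to 3.71 TPM, and of 10 erythroid and megakaryocytic markers 2 summed to 3.03 to 4.19 TPM and 2.18 to 6.31 TPM, where no dendritic marker was tested and 0 of the 2 erythroid and megakaryocytic markers were called. Of the 9 epithelial and fibroblast markers, 0 were listed.

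Differences are log2 fold changes of TPM + 1, libraries under the sh-ZNF217 label minus NC, from 1 limma fit over the 14582 genes that reached 1 TPM in 2 or more libraries, with Benjamini-Hochberg adjusted p-values. A gene was called higher or lower at an adjusted p below 0.05 and a log2 fold change of more than 0.5 in size. Across all tested genes 6.26% were called higher and 2.46% lower. Of the 10 genes, 9 could be tested: TLR1, TLR4, TLR6, TLR8 and LY96 were called higher, none was called lower, and TLR2, CD14, MYD88 and IRAK3 were not called. TLR5 stayed below 1 TPM in all 4 libraries and was not tested. All 9 tested genes had both libraries labelled sh-ZNF217 above both NC libraries, a pattern that 33.5% of all tested genes showed. CD14 entered the test only through the libraries in which it was higher, so counts over the 9 describe those genes alone. Their median log2 fold change of 0.83, against 0.02 for all tested genes, is the value of CD14 itself, and it was 0.51 over the genes with at least 1 TPM in all 4 libraries and 1.27 with a pseudocount of 0.1. Leaving out sh-ZNF217 replicate 1 left TLR1 as the 1 gene called, and 3 genes were called without NC replicate 1 or without sh-ZNF217 replicate 2. In bulk RNA, a change in the number of cells of a type and a change in RNA per cell cannot be told apart.

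**Figure D1:**
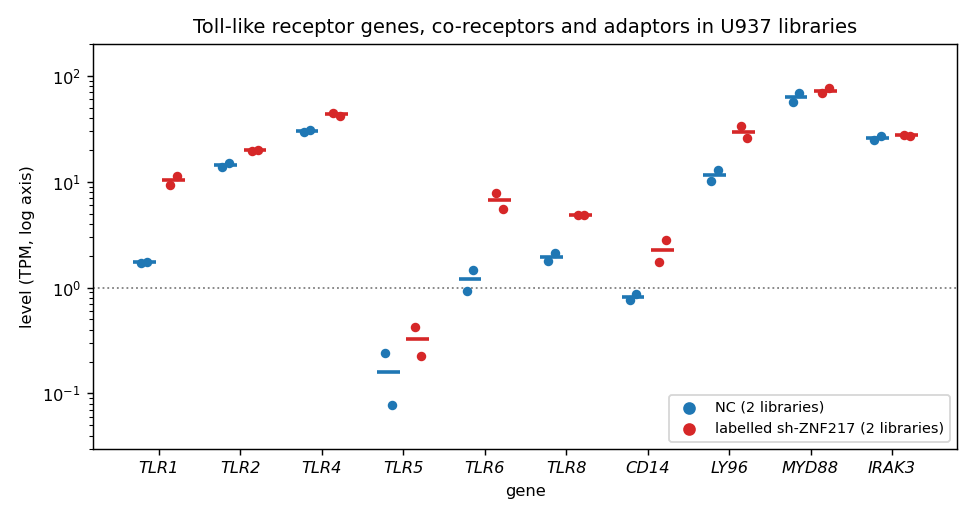
Levels of the 10 genes (TPM, log axis), with 1 point for each library, a horizontal bar for the mean of 2 libraries, and a dotted line at 1 TPM. TLR1 lies near 1.73 TPM in NC and near 10.3 TPM under the sh-ZNF217 label, IRAK3 lies at 24.7 to 27.9 TPM in all 4, and TLR5 lies under the dotted line throughout.

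TLR1 and TLR6, the partners of TLR2, had the largest differences among the receptors, TLR1 ahead of TLR6 except without sh-ZNF217 replicate 2, where TLR6 had 2.01 and TLR1 1.91 on the log2 scale. TLR1 was listed at 1.71 and 1.76 TPM in the NC libraries and at 9.29 and 11.3 TPM under the sh-ZNF217 label. The groups did not overlap, and the mean rose from 1.73 ± 0.0338 to 10.3 ± 1.45 TPM (SD, n = 2), a ratio of 5.96. In limma the difference came to 2.04 on the log2 scale (SE 0.18, 95% interval 1.60 to 2.49, adjusted p 0.00427). Of all tested genes, 0.281% were higher by at least as much, TLR1 included. The call held without any 1 library, with log2 fold changes of 1.91 to 2.18. TLR6, the other partner of TLR2, was listed at 0.937 and 1.46 TPM in NC and at 7.81 and 5.55 TPM in the other group. Again both groups stood apart, although TLR6 was the more variable of these partners, with means of 1.20 ± 0.372 and 6.68 ± 1.60 TPM (SD, n = 2) and a ratio of 5.56. For TLR6 the log2 fold change came to 1.80 (SE 0.25, 95% interval 1.19 to 2.41, adjusted p 0.0115), and without sh-ZNF217 replicate 1 it was 1.58 with an adjusted p of 0.0663, no longer a call.

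TLR1 (ENSG00000174125, chr4:38790677-38856817) and TLR6 (ENSG00000174130, chr4:38822897-38856817) are neighbours on the minus strand of hg38, and their annotated spans overlap. In GENCODE, 1 of the 10 TLR1 transcripts begins at position 38856817, the same base at which both TLR6 transcripts begin, and 57 exonic bases are common to both genes (1.26% of those of TLR1 and 0.832% of those of TLR6). Their longest open reading frames were 77.9% identical over 2347 aligned bases, with 1 identical run of 218 bases, so reads inside that run could belong to either gene and the split between them is uncertain. Summed as 1 gene, TLR1 and TLR6 had 2.65 and 3.22 TPM in NC and 17.1 and 16.9 TPM under the sh-ZNF217 label. The sum had a log2 fold change of 2.20 in limma (SE 0.14, 95% interval 1.84 to 2.56, adjusted p 0.00218), a setting chosen after the values were seen. In TPM, the libraries labelled sh-ZNF217 lay closer together for the sum than for either gene, while the NC libraries lay farther apart. The RefSeq promoter window of TLR6 is shown because it lies directly before the start that TLR6 shares with a TLR1 transcript. It holds the 250 bases before that start (chr4:38856818-38857067, GRCh38.p14, minus strand, 5′ to 3′) and none of the motifs searched, so it has no capitals.
TLR6: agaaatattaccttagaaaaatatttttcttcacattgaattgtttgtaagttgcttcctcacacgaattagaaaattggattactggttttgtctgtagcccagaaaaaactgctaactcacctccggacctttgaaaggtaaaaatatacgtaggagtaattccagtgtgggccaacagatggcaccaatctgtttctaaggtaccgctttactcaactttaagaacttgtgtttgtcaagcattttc

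TLR2 (ENSG00000137462, chr4:153684070-153706260, plus strand) is the receptor chain that TLR1 and TLR6 share. It was listed at 13.7 and 15.2 TPM in NC and at 19.6 and 20.1 TPM under the sh-ZNF217 label. The groups did not overlap, but the step was small, from 14.5 ± 1.03 to 19.8 ± 0.320 TPM (SD, n = 2). On the log2 scale TLR2 differed by 0.43 (SE 0.10, 95% interval 0.18 to 0.68, adjusted p 0.0423), which is under the fold minimum and therefore no call. TLR2 was the more abundant chain in every library. The ratio of TLR1 to TLR2 in TPM was 0.124 and 0.116 in NC and 0.474 and 0.566 in the other group, and that of TLR6 to TLR2 was 0.0683 and 0.0964 in NC and 0.399 and 0.277. Both ratios were thus higher in each library labelled sh-ZNF217 than in either NC library, while TLR1 and TLR6 mRNA remained below that of TLR2.

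TLR4 (ENSG00000136869, chr9:117704175-117724735, plus strand), the lipopolysaccharide receptor, was the most abundant receptor of the set. It was listed at 29.5 and 30.6 TPM in NC and at 44.2 and 42.1 TPM under the sh-ZNF217 label, means of 30.1 ± 0.742 and 43.2 ± 1.48 TPM (SD, n = 2). The groups stood apart, and TLR4 differed by 0.51 on the log2 scale (SE 0.07, 95% interval 0.32 to 0.69, adjusted p 0.0131). This call lay at the fold minimum and was lost without NC replicate 1 (0.48), without sh-ZNF217 replicate 1 (0.47, adjusted p 0.0731), without sh-ZNF217 replicate 2 (adjusted p 0.0607), with median-of-ratios scaling (0.48) and in limma without trend and robust moderation (adjusted p 0.0574). Exons of another annotated gene on the same strand, ENSG00000285082, overlap those of TLR4, so some reads could belong to either.

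LY96 (ENSG00000154589), which sits on the TLR4 ectodomain and completes its lipid-binding pocket, was listed at 10.3 and 12.9 TPM in NC and at 33.3 and 25.7 TPM under the sh-ZNF217 label. The latter differed from each other by less than from NC, and the groups did not overlap, with means of 11.6 ± 1.84 and 29.5 ± 5.37 TPM (SD, n = 2) and a ratio of 2.55. LY96 differed by 1.28 on the log2 scale (SE 0.17, 95% interval 0.86 to 1.69, adjusted p 0.0104). It was not called without sh-ZNF217 replicate 1 (1.10, adjusted p 0.0538) or in limma without trend and robust moderation (adjusted p 0.0507). The ratio of LY96 to TLR4 in TPM was 0.347 and 0.421 in NC and 0.753 and 0.610 in the other group, higher in each library labelled sh-ZNF217, so the co-receptor's mRNA stood closer to that of its receptor there.

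CD14 (ENSG00000170458, chr5:140631728-140633700, minus strand), the membrane-anchored carrier of lipopolysaccharide and a defining marker of mature monocytes, was low. It was listed at 0.760 and 0.861 TPM in NC and at 1.73 and 2.79 TPM under the sh-ZNF217 label. The groups did not overlap, but the latter libraries differed widely from each other, with means of 0.811 ± 0.0714 and 2.26 ± 0.752 TPM (SD, n = 2). CD14 differed by 0.83 on the log2 scale (SE 0.27, 95% interval 0.16 to 1.50, adjusted p 0.0913), which did not pass. Among protein-coding genes alone its adjusted p was 0.0451. Against TLR4, CD14 stood at a ratio in TPM of 0.0257 and 0.0282 in NC and of 0.0391 and 0.0662 in the other group, far below LY96 in every library.

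**Figure D2:**
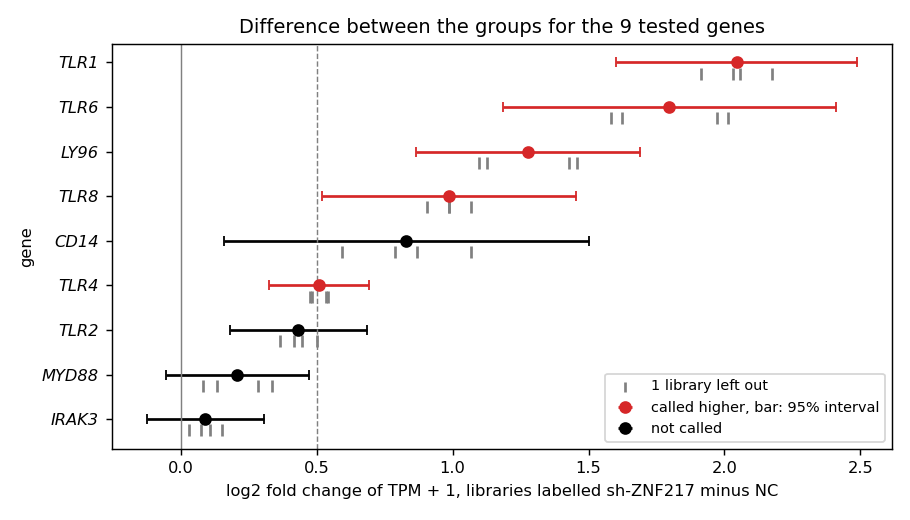
Log2 fold change of TPM + 1 for the 9 tested genes, sh-ZNF217 label minus NC, with 95% intervals from limma (red where called higher, black where not), a dashed line at the fold minimum of 0.5, and a grey tick for each fit that leaves out 1 library. TLR1 at 2.04 and TLR6 at 1.80 lie farthest to the right, TLR4 at 0.51 lies on the dashed line with ticks on both sides, and IRAK3 at 0.09 has an interval across 0.

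TLR5 (ENSG00000187554, chr1:223109404-223143248, minus strand), the flagellin receptor, was listed at 0.244 and 0.0785 TPM in NC and at 0.427 and 0.225 TPM under the sh-ZNF217 label. These groups overlapped, and every value was below 1 TPM. Tested without the filter on low values, TLR5 had a log2 fold change of 0.19 and an adjusted p of 0.616.

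TLR8 (ENSG00000101916, chrX:12906620-12923169, plus strand), the endosomal RNA sensor, was listed at 1.79 and 2.12 TPM in NC and at 4.85 and 4.85 TPM under the sh-ZNF217 label. The groups stood apart, with means of 1.96 ± 0.232 and 4.85 ± 0.00220 TPM (SD, n = 2) and a ratio of 2.48. TLR8 differed by 0.99 on the log2 scale (SE 0.19, 95% interval 0.52 to 1.45, adjusted p 0.0255). Leaving out any 1 library ended the call, with adjusted p-values of 0.0857 and 0.055 when NC replicate 1 or 2 was absent and of 0.1 and 0.0966 when sh-ZNF217 replicate 1 or 2 was absent, while the log2 fold change stayed between 0.91 and 1.07. TLR8 has a neighbour of related function, TLR7, which was chosen for its place in the pathway list. TLR7 was listed at 1.52 and 1.25 TPM in NC and at 4.17 and 4.61 TPM in the other group, with a log2 fold change of 1.18 (SE 0.20) and an adjusted p of 0.0198. It too rose without overlap, and its call ended without NC replicate 2 (adjusted p 0.0575), sh-ZNF217 replicate 1 (0.0789) or sh-ZNF217 replicate 2 (0.0881). The ratio of TLR8 to TLR7 in TPM was 1.18 and 1.69 in NC and 1.16 and 1.05 under the sh-ZNF217 label, lower in each library labelled sh-ZNF217, though NC replicate 1 and sh-ZNF217 replicate 1 nearly met and the NC libraries lay farther apart than that.

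MYD88 (ENSG00000172936, chr3:38138552-38143024, plus strand), the adaptor of most of these receptors, was the most abundant gene of the set. It was listed at 57.2 and 68.4 TPM in NC and at 68.7 and 76.3 TPM under the sh-ZNF217 label, so that NC replicate 2 and sh-ZNF217 replicate 1 nearly met. Means were 62.8 ± 7.91 and 72.5 ± 5.37 TPM (SD, n = 2), and the log2 fold change of 0.21 (SE 0.11, 95% interval -0.06 to 0.47, adjusted p 0.227) did not pass. IRAK3 (ENSG00000090376, chr12:66189195-66254622, plus strand), the inhibitory kinase, was listed at 24.7 and 27.0 TPM in NC and at 27.9 and 27.2 TPM in the other group. The difference between its means of 25.8 ± 1.63 and 27.5 ± 0.475 TPM (SD, n = 2) was smaller than the gap between the NC libraries, and the log2 fold change of 0.09 (SE 0.09, 95% interval -0.12 to 0.31, adjusted p 0.509) did not pass. Both intervals end below the fold minimum of 0.5. IRAK3 overlaps annotated RNA genes, 1 of them antisense, and whether counting used strand is not given in the sources used here.

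In order of mean level, NC libraries held MYD88, TLR4, IRAK3, TLR2, LY96, TLR8, TLR1, TLR6, CD14 and TLR5. Each neighbouring pair in this order was separate in its 2 values. In the libraries labelled sh-ZNF217 the order was MYD88, TLR4, LY96, IRAK3, TLR2, TLR1, TLR6, TLR8, CD14 and TLR5. LY96 at 25.7 to 33.3 TPM and IRAK3 at 27.2 to 27.9 TPM overlapped there, and all other neighbours were separate. LY96, TLR1 and TLR6 stood higher in the second order than in the first. The 5 surface receptors together held 46.2 and 49.1 TPM in NC and 81.4 and 79.3 TPM in the other group, most of it TLR4 and TLR2.

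The genes beside the receptor clusters were read for comparison, chosen by position alone among genes in the table. On chromosome 4, FAM114A1, which starts on the other side of the TLR6 start, was listed at 2.34 and 2.19 TPM in NC and at 4.18 and 4.99 TPM under the sh-ZNF217 label, with a log2 fold change of 0.77 and an adjusted p of 0.0479. TMEM156 was listed at 4.84 and 7.26 TPM against 11.2 and 11.0 TPM, with 0.80 and an adjusted p of 0.0455. Both passed narrowly. FAM114A1 was not called without any 1 of the 4 libraries (adjusted p 0.108 to 0.171), and TMEM156 was not called without NC replicate 1 (0.107), sh-ZNF217 replicate 1 (0.153) or sh-ZNF217 replicate 2 (0.147). KLF3, on the far side of TLR1, was not called (0.33, adjusted p 0.105). On chromosome X, TMSB4X had a log2 fold change of -0.21 (adjusted p 0.0192), under the fold minimum, so TLR7 and TLR8 were higher beside a neighbour that was not. Whether the differences of TLR1 and TLR6 exceed those of FAM114A1 and TMEM156 was not tested.

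**Figure D3:**
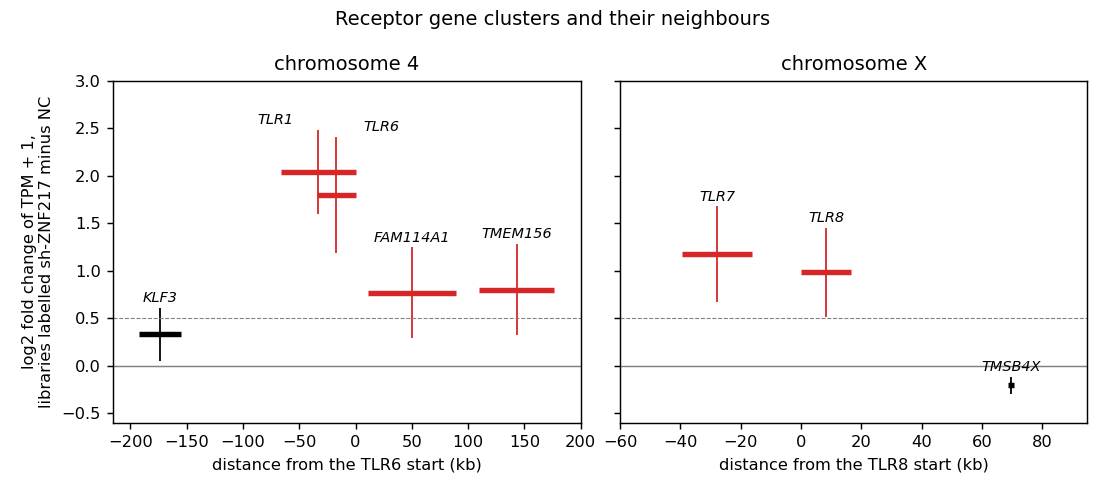
Log2 fold change of TPM + 1, sh-ZNF217 label minus NC, against distance from the TLR6 start on chromosome 4 (left) and from the TLR8 start on chromosome X (right), in kilobases. Thick bars span the annotated genes and thin bars are 95% intervals, red where called higher and black where not: TLR1 at 2.04 and TLR6 at 1.80 lie above FAM114A1 at 0.77 and KLF3 at 0.33, and TLR7 at 1.18 and TLR8 at 0.99 lie above TMSB4X at -0.21.

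Promoter windows of 250 bases before the RefSeq start were read for 8 of the 10 genes. For TLR2, TLR4, CD14, MYD88 and IRAK3 the GENCODE span given above begins upstream of the RefSeq start. Their windows therefore lie partly or wholly inside that span, as do the matches in TLR2, TLR4, CD14 and MYD88. They were searched on both strands for the ETS core AGGAAGT, bound by factors such as PU.1 and ELF1, the AP-1 site TGACTCA, the C/EBP element TTGCNNAA and an interferon response element (GAAA, any 2 bases and GAAA again). The ETS core was found in 3 of 8 windows, those of TLR2, TLR4 and TLR8, and in 7.01% of all 35116 RefSeq windows. TLR8 also held the C/EBP letters (9.05% of all windows), CD14 the AP-1 site (4.2%) and MYD88 the interferon element (3.02%), while TLR5, TLR6 and IRAK3 held none. These matches did not overlap each other. A match is a description of letters and not of binding. Of the 3 genes with an ETS core, TLR4 and TLR8 were called. TLR2, with the core 17 to 11 bases before its RefSeq start, was not. Among those without one, TLR6 was called, CD14, MYD88 and IRAK3 were not, and TLR5 was not tested. Whether the core bears on these calls was not tested. The TLR8 window (chrX:12906370-12906619, GRCh38.p14, plus strand, 5′ to 3′) is shown because it held matches of both kinds, in capitals, the C/EBP letters 108 to 101 and the ETS core 12 to 6 bases before the start. For TLR2 (chr4:153684253-153684279) and TLR4 (chr9:117704220-117704246 and chr9:117704292-117704318, the cores 173 to 167 and 101 to 95 bases before the RefSeq start), the ETS core in capitals is shown with 10 bases on each side.
TLR8: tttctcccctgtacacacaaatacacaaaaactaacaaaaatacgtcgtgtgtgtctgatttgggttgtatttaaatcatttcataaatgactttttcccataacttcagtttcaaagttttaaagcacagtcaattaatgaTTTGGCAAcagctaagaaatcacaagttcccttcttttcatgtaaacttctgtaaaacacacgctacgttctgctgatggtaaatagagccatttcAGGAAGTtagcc
TLR2: ccttttgcttACTTCCTagtcccgggc
TLR4, far core: tcttcttctaACTTCCTctcctgtgac
TLR4, near core: tgccgctttcACTTCCTctcacccttt

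Beyond the 10 genes, 10 lists of the pathway were read, with 157 genes of which 141 were in the table and 135 tested. Of these, 33 were called higher, 4 lower and 98 neither, where 6.26% and 2.46% of all tested genes were called in these directions. Their median log2 fold change was 0.26, and 4 of them passed the low-value filter only through the libraries labelled sh-ZNF217. In the remaining list of Toll-like receptors, TLR7 rose, TLR9 did not pass at 1.57 and 1.72 TPM in NC against 1.48 and 2.19 TPM (log2 fold change 0.09, adjusted p 0.83), and TLR3 stayed below 1 TPM at 0.104 and 0.103 against 0.399 and 0.426 TPM. Without sh-ZNF217 replicate 1 the lists held 14 called genes, and without sh-ZNF217 replicate 2 they held 18. TLR9 overlaps an annotated readthrough gene, and TLR10 was not analysed here. The receptor accessory and trafficking list had 1 of 13 tested genes higher and 2 lower, with a median of 0.05. CD36, a scavenger receptor that hands diacylated ligands to TLR2 with TLR6, rose from 14.6 and 13.5 TPM to 142 and 140 TPM (log2 fold change 3.23, SE 0.07, adjusted p 0.000306). TASL, which links the endosomal receptors to IRF5, fell from 64.0 and 63.7 to 42.9 and 43.8 TPM (-0.55, adjusted p 0.00783), and HMGB1, a chromatin protein that is also a ligand of TLR4, fell from 425 and 542 to 324 and 285 TPM (-0.66, adjusted p 0.0263). TASL was not called without sh-ZNF217 replicate 1 (0.0503). HMGB1 was not called without NC replicate 2 (-0.48), sh-ZNF217 replicate 1 (0.0833) or sh-ZNF217 replicate 2 (0.117).

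Of 9 tested genes that process ligands and receptors in endosomes, 4 were called higher and 0 lower, with a median log2 fold change of 0.59. CTSS, a cathepsin that cleaves endosomal receptors into their active form, rose from 80.4 and 87.1 to 167 and 167 TPM (0.99, adjusted p 0.00203). RNASE6, a monocyte ribonuclease, rose from 9.37 and 9.09 to 34.9 and 30.2 TPM (1.71, adjusted p 0.00212). PLD3, an endosomal exonuclease (0.61, adjusted p 0.0065), and DNASE2, the lysosomal DNase (0.59, adjusted p 0.0102), rose less, and DNASE2 was not called without either library labelled sh-ZNF217 (0.0559 and 0.0612). In the list of adaptors and proximal kinases, 2 of 27 tested genes were called higher and 0 lower, a share near the 6.26% of all tested genes, and the median was 0.14. The 2 that were called were TIRAP, the adaptor that brings MYD88 to TLR2 and TLR4, and MAP3K8, the kinase that feeds the ERK branch. TIRAP went from 10.8 and 10.3 to 22.4 and 17.8 TPM (0.86, adjusted p 0.0163), and MAP3K8 from 7.91 and 10.1 to 14.5 and 17.0 TPM (0.75, adjusted p 0.0317). TIRAP, which overlaps an annotated antisense gene, was not called without sh-ZNF217 replicate 1 (0.0703). MAP3K8 was not called without NC replicate 1 (0.0851), sh-ZNF217 replicate 1 (0.0831) or sh-ZNF217 replicate 2 (0.13).

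Negative regulators of the pathway had 3 of 20 tested genes higher and 1 lower, with a median of 0.23. Across all tested genes 6.26% were called higher and 2.46% lower, and 1 of the 20 passed the filter only through the libraries labelled sh-ZNF217. TNFAIP3, the ubiquitin-editing enzyme A20, rose from 20.4 and 21.9 to 39.4 and 42.1 TPM (log2 fold change 0.92, adjusted p 0.00491), and ATF3, a repressor of receptor-induced cytokines, from 6.35 and 6.66 to 17.4 and 14.4 TPM (1.17, adjusted p 0.00826). DUSP1, a phosphatase of stress kinases, was called narrowly (0.73, adjusted p 0.0482). NRROS, an inhibitor of receptor signalling, fell from 57.3 and 53.7 to 38.0 and 35.5 TPM (-0.58, adjusted p 0.0105). Leaving out sh-ZNF217 replicate 1 ended the call of ATF3 (0.0511), leaving out sh-ZNF217 replicate 2 that of NRROS (0.0574), and leaving out any 1 library that of DUSP1 (0.0844 to 0.175). TNFAIP3 and NRROS also overlap annotated neighbours. Among 12 downstream transcription factors, JUN rose from 47.4 and 50.0 to 105 and 115 TPM (1.16, adjusted p 0.00203) and FOS from 29.0 and 32.4 to 47.0 and 46.7 TPM (0.60, adjusted p 0.0117), both parts of AP-1, and the other 10 were not called. FOS was not called without either library labelled sh-ZNF217 (0.0669 and 0.0633).

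The list of genes that respond to these receptors had the highest median, 0.95, with 11 of 20 tested genes called higher and 0 lower. Across all tested genes 6.26% were called higher and 2.46% lower, and 1 of the 20 passed the filter only through the libraries labelled sh-ZNF217. The other 9 were not called, and 17 of the 20 had a positive log2 fold change, so the list did not rise as a whole. From this list only called genes are named. CXCL8, a neutrophil chemokine, rose from 146 and 147 to 478 and 466 TPM (log2 fold change 1.68, adjusted p 0.000329). IL1B, interleukin-1 beta, rose from 6.48 and 6.55 to 38.0 and 46.8 TPM (2.52, adjusted p 0.00122), and the costimulator CD86 from 2.48 and 2.56 to 17.8 and 17.4 TPM (2.40, adjusted p 0.00141). CCL2, a monocyte chemokine, was already at 319 and 320 TPM in NC and reached 506 and 496 TPM (0.65, adjusted p 0.00248), and TNFAIP6 rose from 1.43 and 1.51 to 6.98 and 5.59 TPM (1.56, adjusted p 0.00986), a call lost without sh-ZNF217 replicate 1 (1.42, adjusted p 0.0616). The labels mention no added ligand. Among receptors of the IL-1 family, which share the TIR domain and MYD88, IL18RAP rose from 3.71 and 6.54 to 12.7 and 12.1 TPM (1.17, adjusted p 0.0301). That call ended when either sh-ZNF217 replicate was absent (0.123 and 0.111). IL1RAP (0.41, adjusted p 0.0407) and IL18R1 (0.07, adjusted p 0.83) were not called, and IL1R1 was below 1 TPM.

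**Figure D4:**
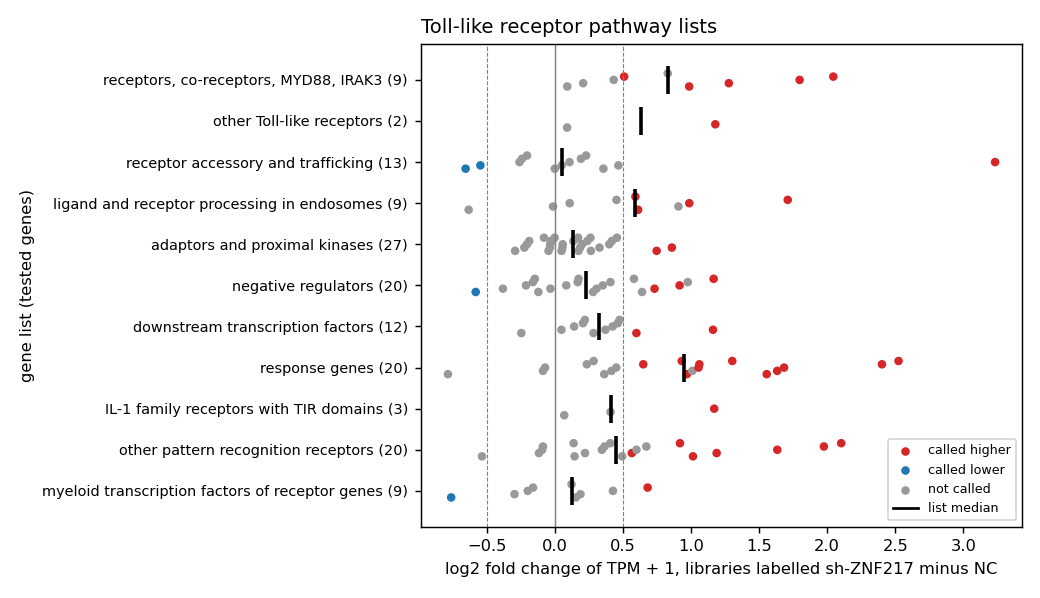
Log2 fold change of TPM + 1, sh-ZNF217 label minus NC, with 1 point for each tested gene and 1 row for each list, the number of tested genes in parentheses, a black bar at the list's median and dashed lines at the fold minimum of 0.5 in either direction. The 27 adaptors and proximal kinases gather around 0.14, the 20 response genes have a median of 0.95, and CD36 at 3.23 is the point farthest right.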

How the data were processed

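Total RNA of U937 cells was made into libraries with an Illumina TruSeq kit per the labels. Per the submitters' processing notes, the authors aligned reads with HISAT2 (version 2.0.5) to hg38. The quantifier, annotation and use of strand were not stated in the sources used here. The study names FPM and DESeq2, but the deposited values were recognized as TPM by their column totals (998932 to 999282), so a count test could not be used. The lowest sum of a listed gene over the 4 libraries was 0.800 TPM. A column was given its sample through NC or ZNF and the number in its name, and further parts of the column names are not explained. Symbols and positions came from GENCODE 44 by Ensembl identifier (16143 of 17656), promoters from RefSeq (GRCh38.p14).

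Values were transformed to log2(TPM + 1), which understates the change of low genes, and ratios quoted are of mean TPM. Genes reaching 1 TPM in 2 or more libraries went into limma 3.58.1 under R 4.3.3 (group alone, trended and robust empirical Bayes, two-sided), with Benjamini-Hochberg adjustment over 14582 genes. The threshold of 0.5 follows the study. The procedure was run on simulated data with independent noise in each library and changes placed only in the more abundant genes. It therefore does not cover calls near 1 TPM or effects shared between libraries. Sequences were handled with Biopython 1.88 in Python 3.11.15 and figures drawn with matplotlib 3.10.9.

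Members and lists were chosen with earlier results of these data known. Named were all members, ZNF217, up to 5 called genes of each list by smallest p, and every gene in the table of both other lists of receptors with TIR domains. Of the genes that this rule names, 1 is not reported here. Alternatives were other pseudocounts, filters, scalings, gene sets and moderation, unadjusted p, a replicate block, 1 library left out, and TLR1 and TLR6 summed.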

Additional observations from a re-analysis of the deposited data

How the results depend on the processing

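No tested member changed direction under any alternative run. TLR1 was called and TLR2, MYD88 and IRAK3 were not called under all 14 alternatives, and the calls that other members lost are given with their genes. CD14 gained a call among protein-coding genes (0.0451) and with unadjusted p (0.0237). Leaving out 1 library gave 1 to 4 members called, all higher, 430 to 1029 genes over the whole table (294 to 712 higher, 129 to 317 lower) and 14 to 32 pathway genes (13 to 29 higher, 1 to 4 lower), with the lone library of a group assumed to vary like the other group. These fits used fewer libraries. With 1 library left out, TLR9 ran from -0.092 to 0.27 and IL18R1 from -0.12 to 0.26, below 0 without sh-ZNF217 replicate 2 alone and never called. limma without trend and robust moderation called 723 genes (560 higher, 163 lower), 3 members, all higher, and 1 pathway gene lower. Unadjusted p called 1950 genes, 614 of them lower. The members' median log2 fold change was 1.27 with a pseudocount of 0.1 and 0.51 with at least 1 TPM in all 4 libraries, where TLR6 and CD14 were not tested. The cause of these shifts was not tested beyond the construction of each alternative. Of 446 values for 32 named pathway genes, 395 kept direction and call, 49 lost the call and 2 reversed. The losses given with pathway genes are those with 1 library left out, and some of these genes also lost the call under other alternatives. Groups share replicate numbers, and deviations of same-numbered libraries were not correlated over all tested genes (Pearson correlation -0.00534). A single correlation over all genes cannot show a batch that touches few genes. Whether same-numbered libraries shared a culture or batch was not stated and was not tested. With a replicate block, 1049 genes (749 higher, 300 lower), 5 members and 33 pathway genes (30 higher, 3 lower) were called, and the members' median was 0.83. Depth is unknown, which limits all genes near 1 TPM.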

Other observations

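Other pattern recognition receptors were read from a list of 22 genes, 21 in the table and 20 tested, with 7 called higher and 0 lower and a median log2 fold change of 0.45, against 6.26% of all tested genes called higher. CLEC7A, the beta-glucan receptor dectin-1, rose from 4.57 and 5.65 TPM to 22.6 and 23.3 TPM (1.98, adjusted p 0.00238 in limma). C5AR1, the receptor of complement C5a, rose from 11.1 and 11.3 to 23.2 and 20.9 TPM (0.92, adjusted p 0.00774), and MEFV, the inflammasome sensor pyrin, from 4.02 and 4.14 to 9.01 and 9.50 TPM (1.01, adjusted p 0.012). FPR1, a receptor of formylated peptides, was listed at 2.68 and 0.749 TPM in NC and at 10.7 and 9.19 TPM under the sh-ZNF217 label (2.10, adjusted p 0.02), a wide spread in NC. CLEC4E, the receptor Mincle, was at 0.199 and 0.156 TPM against 2.71 and 2.60 TPM (1.63, adjusted p 0.0138) and is 1 of 2 genes of this list that passed the filter only through the latter. Without sh-ZNF217 replicate 1 the calls of C5AR1 (0.0519), MEFV (0.064), FPR1 (0.101) and CLEC4E (0.0763) were lost, and without sh-ZNF217 replicate 2 those of MEFV (0.0678), FPR1 (0.084) and CLEC4E (0.0698).

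Among 9 tested myeloid transcription factors known to act on receptor genes, the median log2 fold change was 0.12 and 7 were not called. Across all tested genes 6.26% were called higher and 2.46% lower. IRF8, a factor of monocyte and dendritic cell lineages, fell from 197 and 266 to 128 and 142 TPM (-0.76, adjusted p 0.0254), a call lost without sh-ZNF217 replicate 1 (-0.69, adjusted p 0.122) or sh-ZNF217 replicate 2 (-0.84, adjusted p 0.0848).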
